A study of Mus musculus with 12 samples.

Results

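The mouse line RAW264.7, which grows as macrophage-like cells, was compared after 24 h in conditioned medium with an added blocker of the annexin A1 receptor against the same line in normal medium. The comparison rested on 6 of the 12 arrays of the study, taken by their titles: 3 of SCR medium with CSH (replicates 1, 2 and 4) and 3 of normal medium (replicates 2, 3 and 4). SCR medium was conditioned by PyMT-41C cells labelled SCR, and was mixed in equal parts with RPMI holding 10% FBS. CSH was named in the labels only as the blockade of the annexin A1 receptor. The other arrays came from SCR medium without CSH (replicates 1, 3 and 4), used here beside the comparison, and from medium of JMJD6-KO PyMT-41C cells (replicates 1, 2 and 3; KO medium). Neither CSH added to normal medium nor a vehicle appears among the labelled groups, so a response to CSH of its own and to a solvent cannot be told apart from the response to the medium. All arrays came from 1 cell line. The labels do not say whether each replicate was a culture of its own, so the p-values reflect only how far these samples lay apart, possibly for technical reasons. The question of the design is which parts of the response to conditioned medium were seen when the receptor was blocked.

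Annexin A1 is a phospholipid-binding protein of the cytoplasm that leukocytes and other cells can release, and that acts on formyl peptide receptors at the cell surface. These receptors couple to inhibitory G proteins, and through them to phospholipase C and phosphoinositide 3-kinase. In macrophages they are known for roles in chemotaxis, in the clearance of dying cells and in the resolution of inflammation. Macrophages exposed to products of tumour cells are known to change cytokine, scavenger receptor and growth programmes.

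Signals were RMA values on the log2 scale, on which a difference of 1 is a 2-fold change. Values of single arrays are given in the order of their replicate numbers (n = 3 per group), and differences with the 95% interval or the standard error (SE) of a limma fit over all 12 arrays. Of 30464 named genes, 18119 exceeded the array median in at least 3 arrays and were tested. A gene counted as changed at a Benjamini-Hochberg adjusted p below 0.05. Array medians ran from 5.40 to 5.52 and no pair of arrays held identical values. All 10 macrophage markers, among them Cd68 and Lyz2, lay above the array medians in both groups, with a mean level of 13.78 to 14.01 in SCR medium with CSH and 13.87 to 13.94 in normal medium. Of 12 markers of mammary epithelial or tumour cells, the type that made the medium, 4 passed the filter and 0 were called. Their mean level was 5.03 to 5.07 in SCR medium with CSH and 5.01 to 5.02 in normal medium, which is below the array medians.

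In SCR medium with CSH, 3787 genes (20.9% of those tested) were higher and 2706 (14.9%) were lower than in normal medium. Counts of list members given below are to be read beside these shares. Changes of at least 2-fold numbered 512 (2.83%), with 241 rises (1.33%) and 271 falls (1.5%), and 34 rises (0.188%) and 28 falls (0.155%) were at least 4-fold. The 5 largest rises among the named genes were those of Car6, F5, Ccr1, Plaur and Avil. The largest falls were those of Ephx1, Yipf7, Ankdd1a, Olfr110 and Cd72. The 3 arrays of 1 group did not overlap the 3 of the other in 8488 genes (46.8%). SCR medium without CSH, set against the same normal medium arrays, gave 3504 higher (19.3%) and 2865 lower (15.8%) genes, or 35.2% in all. Of these, 257 rises (1.42%) and 301 falls (1.66%) were at least 2-fold, together 3.08%. Those 2 comparisons share their normal medium arrays, so their values are only set side by side here.

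Set directly against SCR medium, SCR medium with CSH gave 0 called genes (0% of those tested) in limma, with 1131 genes (6.24%) at an unadjusted p below 0.05. The 95% intervals of that difference had a median half-width of 0.168 on the log2 scale, and 96.3% of all genes had an interval that lay within 0.5 of 0 on either side. With array weights, which gave SCR replicate 4 a weight of 6.135, 79 genes were called, 55 higher and 24 lower. The 3 arrays of each group did not overlap in 1557 genes (8.59%).

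Promoters were read for the list with the largest share of members called in each direction, since the letters in them can be set beside the values. They are RefSeq windows of GRCm38.p6, 250 bases before to 50 bases after each gene's start, written 5′ to 3′ on the gene's strand. The first pair belongs to genes that rose, with capitals marking the letters TGATGNAA on either strand, the core bound by ATF4, the transcription factor of the integrated stress response. Trib3 encodes a pseudokinase of stressed cells (chr2:152344011-152344310, minus strand) and Slc7a11 the cystine and glutamate exchanger (chr3:50443564-50443863, minus strand).
Trib3: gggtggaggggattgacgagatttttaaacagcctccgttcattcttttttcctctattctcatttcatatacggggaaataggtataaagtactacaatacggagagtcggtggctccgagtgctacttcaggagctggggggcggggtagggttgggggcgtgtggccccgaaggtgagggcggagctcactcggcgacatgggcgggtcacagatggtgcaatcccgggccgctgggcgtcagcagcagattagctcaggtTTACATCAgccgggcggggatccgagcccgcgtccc
Slc7a11: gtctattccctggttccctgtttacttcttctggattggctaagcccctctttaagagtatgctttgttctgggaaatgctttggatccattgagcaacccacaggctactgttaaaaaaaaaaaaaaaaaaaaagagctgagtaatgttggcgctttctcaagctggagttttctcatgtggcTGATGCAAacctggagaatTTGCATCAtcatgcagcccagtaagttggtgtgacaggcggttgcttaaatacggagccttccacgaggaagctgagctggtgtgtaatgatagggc
The second pair belongs to genes that fell, with capitals marking TTTGAA on either strand, the cell cycle genes homology region found in promoters of late cell cycle genes. Cenpf encodes a kinetochore protein (chr1:189688037-189688336, minus strand) and Kif23 a kinesin of the central spindle (chr9:61946750-61947049, minus strand).
Cenpf: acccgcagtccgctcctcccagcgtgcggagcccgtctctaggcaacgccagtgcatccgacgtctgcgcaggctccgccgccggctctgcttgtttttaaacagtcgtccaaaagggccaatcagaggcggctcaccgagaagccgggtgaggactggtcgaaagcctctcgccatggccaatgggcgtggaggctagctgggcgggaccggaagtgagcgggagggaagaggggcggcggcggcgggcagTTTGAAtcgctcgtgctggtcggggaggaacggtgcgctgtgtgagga
Kif23: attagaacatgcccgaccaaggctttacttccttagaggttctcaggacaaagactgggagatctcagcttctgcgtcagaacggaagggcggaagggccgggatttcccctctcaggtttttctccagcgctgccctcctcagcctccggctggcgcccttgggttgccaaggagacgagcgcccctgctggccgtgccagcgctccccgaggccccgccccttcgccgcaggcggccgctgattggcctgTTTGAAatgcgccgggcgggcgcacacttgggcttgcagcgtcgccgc
In Trib3 the match began at base 15 after the start, and in Slc7a11 the 2 matches began 66 and 47 bases before it. In both Cenpf and Kif23 the match began at base 3 after the start.

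TGATGNAA lay in the promoters of 10 of 31 genes of the list of ATF4 targets and tRNA synthetases for which a promoter was given (32.3%), against 3.31% of the 10445 tested genes with one and 4.51% of all 27025 genes in the table. That list was written from known targets, so its share is a property of the list. Among the genes that rose at least 2-fold, 162 had a promoter and 17 of these held a match (10.5%), against 2 of 211 among the falls (0.948%). Outside the list, the share among the rises was 13 of 155 (8.39%). TTTGAA lay in 28 of 39 promoters of the mitosis list (71.8%), against 15.4% of tested genes and 20.2% of all genes. A match began within 50 bases of the start, on either side, in 27 of the 39 promoters (69.2%), against 4.08% of the tested genes with a promoter. The mitosis list was likewise written from known genes, so its shares are a property of the list. Among the falls of at least 2-fold, 74 of 211 promoters held TTTGAA (35.1%), against 23 of 162 among the rises (14.2%). Outside the mitosis list the share among the falls was 49 of 180 (27.2%). Within 50 bases of the start it was 21 of 180 (11.7%), against 1 of 162 among the rises (0.617%). CCAAT, searched on both strands as well, lay in 28 of 39 promoters of the mitosis list (71.8%) and in 42.7% of the tested genes. Bub3 held TTTGAA too and did not change, so the letters were not limited to genes that fell. A match describes the letters of the window and is no evidence of binding.

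**Figure D1:**
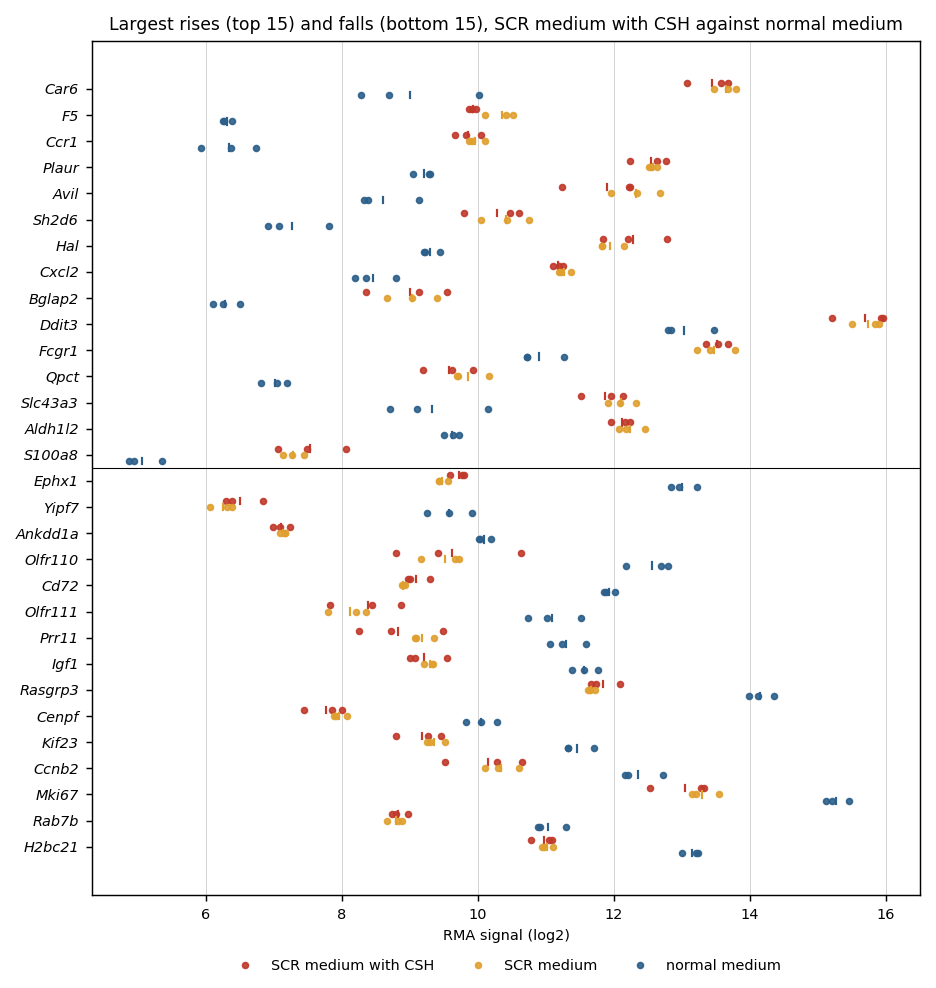
RMA signal (log2, horizontal axis) of the 15 largest rises and the 15 largest falls of SCR medium with CSH against normal medium, with each array as a point and each group's mean as a tick (3 arrays per group). The points of SCR medium with CSH and of normal medium are apart in all 30 genes, as the rule for naming them required, and SCR medium without CSH is drawn for comparison.

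Among secreted proteins and receptors, Car6 rose most. Car6, a secreted carbonic anhydrase (chr4:150187015-150201135), measured 13.58, 13.08 and 13.68 in SCR medium with CSH, against 8.28, 10.02 and 8.70 in normal medium. The difference was 4.45 (SE 0.33, adjusted p = 7.2e-07), and normal medium replicate 3 was the highest of its group. F5, coagulation factor V (chr1:164151835-164220277), measured 9.87, 9.92 and 9.98 in SCR medium with CSH, against 6.26, 6.39 and 6.27 in normal medium, a rise of 3.62 (SE 0.11, adjusted p = 9.2e-10). Alone among the 15 largest rises, its arrays with CSH lay wholly below those of SCR medium (10.52, 10.11 and 10.42). That difference was -0.43 (95% interval -0.66 to -0.20, unadjusted p = 0.0015, adjusted p = 0.619). Plaur, the urokinase receptor, measured 12.64, 12.76 and 12.24 in SCR medium with CSH, against 9.28, 9.04 and 9.29 in normal medium (rise 3.34, SE 0.13). Plau, the protease that it binds, fell by 0.79. Of 14 genes of coagulation, plasmin and matrix breakdown, 5 rose and 5 fell (median -0.08), with Mmp12, an elastase, up by 1.03 and Hpse, heparanase, down by 1.70. Of 10 angiogenic factors, 4 rose and 1, Pdgfb, fell, against 20.9% and 14.9% of all genes. One of these rises, of Nrp2, a co-receptor of vascular growth factors, was 0.22 (adjusted p = 0.0439), and its call was lost in 12 of the alternatives (adjusted p from 0.00737 to 0.408).

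Ccr1, a receptor of inflammatory chemokines (chr9:123962126-123968692), measured 9.83, 10.05 and 9.67 in SCR medium with CSH, against 5.93, 6.74 and 6.37 in normal medium, a rise of 3.50 (SE 0.16, adjusted p = 2.9e-08). Ptafr, the receptor of platelet-activating factor, rose by 1.70, Ccr2 by 0.74 and C3ar1, a complement receptor, by 0.59. Cx3cr1, the fractalkine receptor, fell by 1.79 and Gpr183, an oxysterol receptor, by 1.72. Cx3cr1 varied most among the arrays with CSH, at 10.45, 11.67 and 10.33, against 12.73, 12.55 and 12.53 in normal medium. Of 13 chemoattractant receptors tested, 4 rose, 4 fell and 5 did not pass, with a median difference of -0.15 against 0.03 over all genes.

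Among 12 chemokines tested, 5 rose and 2 fell (median 0.22). Cxcl2, which attracts neutrophils, measured 11.11, 11.25 and 11.19 in SCR medium with CSH, against 8.36, 8.80 and 8.20 in normal medium (rise 2.73, SE 0.21). Ccl6 rose by 2.25 and Cxcl14 by 1.72, and Cxcl16, a membrane-bound ligand, fell by 1.48. Ccl3 did not pass against normal medium (0.27, adjusted p = 0.145), and its interval against SCR medium was 0.16 to 0.75. Ccl5 fell by 0.32, a call that was lost without normal medium replicate 2 or 4 or CSH replicate 2 (adjusted p up to 0.0916), and that of Ccl25 (rise 0.19) was lost without normal medium replicate 2.

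Of 14 inflammatory cytokines tested, 9 rose, 1 fell and 4 did not pass (median 0.58). Il1a, an alarmin that acts on the interleukin-1 receptor, measured 9.86, 9.94 and 9.31 in SCR medium with CSH, against 7.61, 7.54 and 7.67 in normal medium (rise 2.10, SE 0.16). Tnfsf9, the ligand of 4-1BB, measured 12.88, 12.74 and 12.73 in SCR medium with CSH, against 10.66, 10.90 and 10.56 in normal medium (rise 2.08). Arrays did not overlap between the groups in either gene. Il23a rose by 1.28, Csf1 by 1.06, Tnf by 0.66 and Osm by 0.65. Ltb, lymphotoxin beta, was the member that fell, by 0.79. Il6 rose by 0.98 (adjusted p = 0.0398) on signals of 5.41 to 6.26 in SCR medium with CSH against 4.83 to 5.14 in normal medium, and its adjusted p ran from 0.0068 to 0.135 over the alternatives, losing the call without any of 5 arrays. Il1rn, the interleukin-1 receptor antagonist, did not pass (-0.01).

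For the pathway that CSH is labelled to block, 15 of 18 genes written for it were named on the platform and 12 were tested. Of these 3 rose, 6 fell and 3 did not pass (median -0.26). Anxa1 itself measured 10.44, 10.65 and 10.52 in SCR medium with CSH, against 11.51, 11.39 and 11.37 in normal medium. It fell by 0.89 (SE 0.07, adjusted p = 1.2e-06), and CSH differed from SCR medium by -0.10 (95% interval -0.25 to 0.06). Fpr1, Fpr2 and Fpr3 were not named in the platform table used here, so the levels of the main receptors are not given. Fpr-rs3, Fpr-rs4, Fpr-rs6 and Fpr-rs7 stayed below the filter, with group means of 4.11 to 4.81 in SCR medium with CSH and 4.10 to 4.94 in normal medium. Downstream, Gnai2, the inhibitory G protein subunit, fell by 0.42, Plcb2, a phospholipase C, by 0.86 and Pik3cg, a phosphoinositide 3-kinase, by 0.68. Plcb3, another phospholipase C (-0.09), and the receptor Cmklr1 (0.003) did not pass. Pla2g4a, the phospholipase that frees arachidonic acid, rose by 1.33 and Alox5ap, needed for leukotriene synthesis, fell by 0.52. Of the 12 members, 1 had an interval of CSH against SCR medium that left out 0, and differences ran from -0.25 to 0.14.

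Genes of mitosis and cytokinesis fell together. Of 45 tested, 43 fell, 37 of them at least 2-fold, and the median difference was -1.42. Cenpf measured 8.0, 7.86 and 7.45 in SCR medium with CSH, against 10.05, 10.28 and 9.83 in normal medium (difference -2.28, SE 0.14, adjusted p = 1.95e-07). Kif23 measured 9.46, 9.27 and 8.80 in SCR medium with CSH, against 11.33, 11.71 and 11.32 in normal medium, also a difference of -2.28. Ccnb2, cyclin B2, fell by 2.21, as did Mki67, the proliferation marker Ki-67, and Prr11, a proline-rich protein of dividing cells, fell by 2.47. Cdk1, the kinase that cyclin B activates, fell by 0.87. No array of either group overlapped the other group in 43 of the 45 genes, against 46.8% of all genes tested. Mad2l1, a spindle checkpoint protein, rose by 0.37, and Bub3, its partner in the checkpoint, did not pass (-0.13); both are named after their values were seen.

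The arrays with CSH were not alike in these genes. In all 45 of them CSH replicate 4 was the lowest of the 3 arrays. The median against the normal medium mean was -1.17, -1.32 and -1.77 in CSH replicates 1, 2 and 4. Without CSH replicate 4 the median difference from normal medium was -1.25. Against SCR medium the median was -0.15, with 42 of 45 means lower with CSH, 0 called and 0 intervals that left out 0. Without CSH replicate 4 that median was -0.0033, and the part of that array in the difference was not tested further. In RNA from whole cultures, fewer dividing cells and less RNA of these genes per cell cannot be told apart.

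Of 44 genes of DNA replication, 20 fell and 7 rose (median -0.19). E2f8, a repressor of late S phase, fell by 1.03 and Tk1, thymidine kinase, by 0.86, but Mcm2, a subunit of the replicative helicase, rose by 0.88 and Mcm5, another subunit, fell by 0.65. Of 20 inhibitors and G1 cyclins, 6 rose and 8 fell. Gadd45a, a stress-induced growth arrest gene, measured 11.86, 11.55 and 11.79 in SCR medium with CSH, against 9.10, 10.00 and 9.41 in normal medium (rise 2.23), and its relative Gadd45b fell by 1.72. Cdkn1a, the inhibitor p21, rose by 0.56, Ccnd2, cyclin D2, rose by 1.93, and Cdkn1b, the inhibitor p27, fell by 0.55. H2bc21, a histone H2B gene, fell by 2.17.

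**Figure D2:**
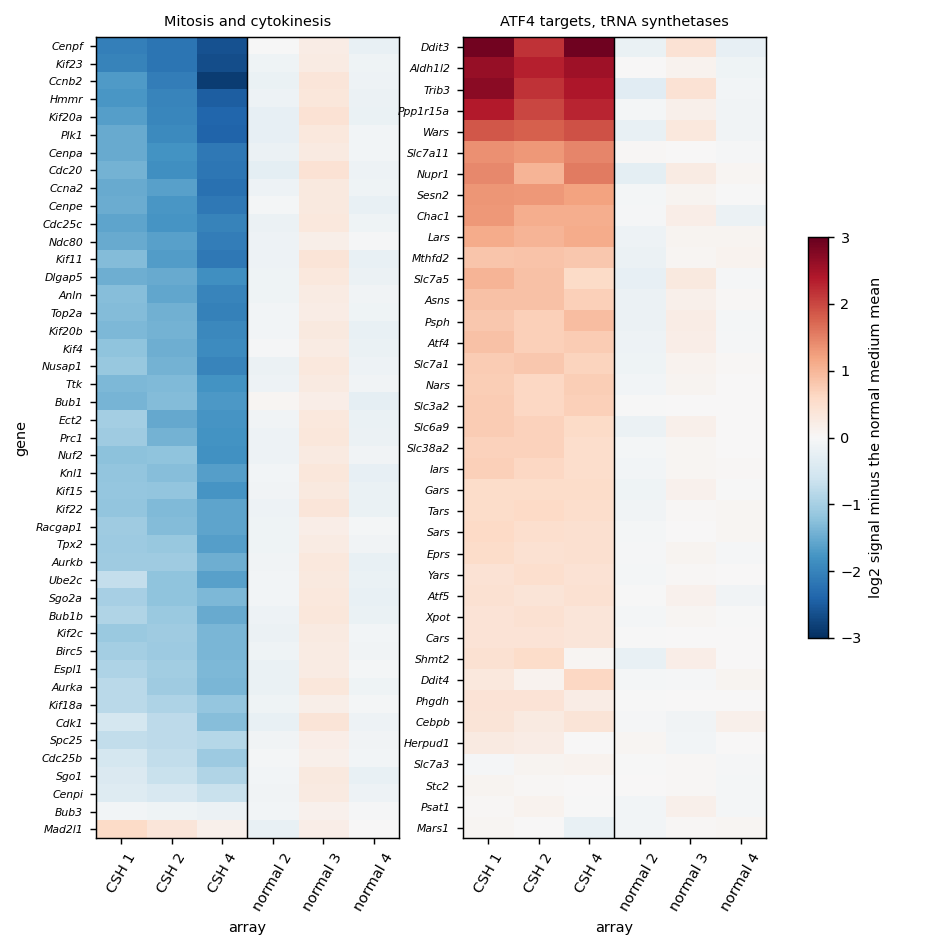
Log2 signal minus the normal medium mean (colour scale, blue lower, red higher) for the 45 tested genes of mitosis (left) and the 38 tested ATF4 targets and tRNA synthetases (right), with arrays of SCR medium with CSH to the left of those of normal medium. CSH replicate 4 is the darkest blue column for mitosis, and the ATF4 targets are red in all 3 CSH arrays for the upper rows.

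Genes of the integrated stress response rose together. Of 38 tested targets of ATF4 and aminoacyl-tRNA synthetases, 32 rose, 10 of them at least 2-fold, 0 fell and 6 did not pass (median 0.66). Ddit3, the factor CHOP, measured 15.93, 15.21 and 15.95 in SCR medium with CSH, against 12.84, 13.47 and 12.79 in normal medium, a rise of 2.66 (SE 0.21, adjusted p = 1.0e-06). The probe set used for Ddit3 has no mapped position, and the mapped one gave 2.20. Trib3 measured 10.60, 10.04 and 10.32 in SCR medium with CSH, against 7.54, 8.31 and 7.80 in normal medium (rise 2.44, SE 0.18). Aldh1l2, an enzyme of mitochondrial folate metabolism, rose by 2.5, Ppp1r15a, which restores translation by directing a phosphatase to eIF2 alpha, by 2.22, and Wars, the tryptophanyl-tRNA synthetase, by 1.86. Atf4 itself rose by 0.79. Arrays did not overlap between the groups in 32 of the 38 genes, against 46.8% of all genes tested. Ddit4, an inhibitor of mTORC1 signalling, rose by 0.35, a call lost without normal medium replicate 2 or CSH replicate 4 (adjusted p up to 0.0558). The members at the low end were Mars1, the methionyl-tRNA synthetase (-0.05), and Psat1, of serine synthesis (0.04), which did not pass and are named after their values were seen.

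Set against SCR medium, the median over these 38 genes was 0.05, with 0 called. The interval lay above 0 in 4 members and below 0 in 1, against 4.10% and 2.14% over all genes. For Ddit3 it ran from -0.49 to 0.40 and for Slc7a11 from -0.19 to 0.22. The medians against the normal medium mean were 0.73, 0.62 and 0.58 in CSH replicates 1, 2 and 4. In normal medium, replicate 3 was the highest of its group in Ddit3 and Trib3, toward the arrays with CSH, and replicate 2 was in Slc7a11. Whether an array of normal medium was shifted over the list was not tested.

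Of 17 transporters of amino acids tested, 10 rose and 3 fell (median 0.66). Slc7a11 measured 12.35, 12.29 and 12.45 in SCR medium with CSH, against 11.02, 11 and 10.94 in normal medium (rise 1.38, SE 0.09, adjusted p = 4.4e-07). Slc1a4, a transporter of neutral amino acids, rose by 1.38, Slc7a1, of cationic ones, by 0.74, and Slc3a2, the shared heavy chain of several transporters, by 0.70. Slc43a3, placed here by its gene family and not as a known carrier of amino acids, rose by 2.55. In that gene normal medium replicate 3 was at 10.15, against 8.71 and 9.10 in the others of its group. Slc43a2, of large neutral amino acids, fell by 1.22. Hal, which breaks down histidine, measured 12.20, 12.78 and 11.84 in SCR medium with CSH, against 9.22, 9.21 and 9.45 in normal medium (rise 2.98).

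Of 22 genes of the unfolded protein response, 11 rose and 3 fell (median 0.26). Hspa5, the chaperone BiP of the endoplasmic reticulum, measured 14.11, 13.80 and 14.17 in SCR medium with CSH, against 13.07, 12.68 and 12.68 in normal medium (rise 1.22, SE 0.11). Dnajb9 rose by 1.11, and Ern1, the sensor IRE1, and Selenos, of protein export for degradation, by 1.07 each. Hsp90b1 (0.15), Calr (0.06) and Canx (-0.11) did not pass against normal medium. Against SCR medium, of the 22, 20 had a lower mean with CSH than in SCR medium, and 7 had a 95% interval below 0 and 0 had one above it, against 2.14% below and 4.10% above over all genes, and 0 were called. Hspa5 measured 14.51, 14.29 and 14.36 in SCR medium, a difference of -0.36 (95% interval -0.60 to -0.12). Calr, the chaperone calreticulin, differed by -0.37 (-0.62 to -0.12) and Hsp90b1, the chaperone GRP94, by -0.16 (-0.29 to -0.03). Creld2, named after its values were seen, differed by -0.42 (-0.76 to -0.08). The median over the 22 was -0.12, against 0.01 over all genes, and it was -0.0583 without CSH replicate 2. That array was the lowest of the 3 with CSH in 17 of the 22. The lists of the hypoxia response, cAMP feedback and mitosis had medians of -0.12, -0.12 and -0.15 against SCR medium. A median of that size was thus not particular to this list. Intervals that left out 0, counted on either side, numbered 3 of 19, 2 of 13 and 0 of 45 in those lists. They numbered 4 of 11 in the integrins, whose median was 0.01. All 3 arrays with CSH lay below all 3 of SCR medium in Hspa5, Calr and Hsp90b1, and Hspa5 stayed above normal medium in each array. Arrays of SCR medium with and without CSH did not overlap in 8.59% of all genes, and no such count over the 22 is given.

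Of 14 genes of alternative activation, 8 rose and 3 fell (median 0.30). Il4ra, the interleukin-4 receptor, measured 10.44, 10.18 and 10.22 in SCR medium with CSH, against 8.06, 8.11 and 8.08 in normal medium (rise 2.20, SE 0.08). Tgm2, transglutaminase 2, measured 10.21, 10.15 and 9.92 in SCR medium with CSH, against 7.73, 7.65 and 7.74 in normal medium (rise 2.39). Both groups were tight in these genes and did not overlap. Arg1, arginase 1, rose by 0.58 on low signals, and its interval against SCR medium was -0.58 to -0.02. Trem2, a lipid-sensing receptor, fell by 1.06 and Clec7a, the receptor dectin-1, by 0.87. Of 22 scavenger and phagocytic receptors, 9 rose and 6 fell. The C-type lectins Clec4e, Clec4d and Clec5a rose by 1.40, 1.38 and 1.19, and Cd36, a scavenger of oxidised lipid, rose by 0.75. Gas6, a bridging ligand in the uptake of dying cells, fell by 1.62, with an interval against SCR medium of 0.10 to 0.51, and Scarb1, the receptor of high-density lipoprotein, fell by 0.79.

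Fc and Toll-like receptors changed member by member. Fcgr1, the high-affinity receptor of IgG, measured 13.53, 13.35 and 13.68 in SCR medium with CSH, against 10.72, 11.27 and 10.72 in normal medium (rise 2.62, SE 0.16). Fcgr4 fell by 0.47, and Fcgr2b, the inhibitory receptor (0.40), and Fcgr3 (0.01) did not pass. Of 18 Toll-like receptors and adaptors, 7 rose and 8 fell. Tlr4, the receptor of lipopolysaccharide, rose by 1.25 and Tlr2 by 0.60, while Tlr9, which senses DNA, fell by 1.42. Cd180 and Ly86, which form a complex related to that of Tlr4, fell by 1.79 and 1.90. Cd72, an inhibitory receptor best known from B cells, measured 9.0, 9.29 and 8.97 in SCR medium with CSH, against 12.02, 11.86 and 11.88 in normal medium (difference -2.83, SE 0.09).

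Macrophage identity genes were split as well. Csf1r, the receptor of the macrophage growth factor, measured 12.11, 12.52 and 11.75 in SCR medium with CSH, against 13.83, 13.60 and 13.66 in normal medium (difference -1.57). Adgre1, the antigen F4/80, fell by 1.46. Itgam, the integrin CD11b, rose by 1.00 and Cd14, a co-receptor of lipopolysaccharide, by 0.70, and Cd68 (-0.04) and Tyrobp (-0.11) did not pass. Of 11 integrins tested, 5 rose and 2 fell, with Itga4 down by 1.57 and Itgb7, a partner of it, up by 1.05. Igf1, insulin-like growth factor 1, measured 9.07, 9.55 and 9.0 in SCR medium with CSH, against 11.76, 11.38 and 11.56 in normal medium (difference -2.36, SE 0.14). S100a8, a calcium-binding protein of myeloid cells, measured 7.49, 8.06 and 7.06 in SCR medium with CSH, against 5.36, 4.94 and 4.88 in normal medium (rise 2.48). Its normal medium values lay below the array medians, where the log2 scale of RMA compresses differences. Of 8 neutrophil markers, 4 were tested and 1, S100a8 itself, rose, with a mean level over the 8 of 5.65 to 5.71 in SCR medium with CSH and 5.35 to 5.42 in normal medium. Their part in the other results was not tested.

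Of 7 genes listed for the phagocyte NADPH oxidase, 1 rose and 3 fell. Cybb, the catalytic subunit, measured 13.55, 14.22 and 13.26 in SCR medium with CSH, against 15.75, 15.81 and 15.65 in normal medium (difference -2.06, SE 0.20). Its partner Cyba did not pass (0.09), Ncf4 rose by 0.52, and Ncf1 fell by 0.33, a call lost without any of 4 arrays. Of 18 NRF2 targets and antioxidant enzymes, 9 rose and 1 fell. Sqstm1, the autophagy receptor p62, rose by 1.73, Txnrd1, thioredoxin reductase, by 1.08 and Hmox1, haem oxygenase 1, by 0.85. Gclc (0.12) and Gsr (0.33) were among the 8 that did not pass. Ephx1, microsomal epoxide hydrolase (chr1:180989556-181017569) and the member that fell, measured 9.80, 9.76 and 9.59 in SCR medium with CSH, against 13.22, 12.96 and 12.84 in normal medium. Its difference of -3.29 (SE 0.11, adjusted p = 9.2e-10) was the largest fall among the named genes. CSH and SCR arrays did not overlap in Ephx1, with SCR medium at 9.43, 9.43 and 9.56 (difference 0.24, 95% interval 0.02 to 0.47).

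Among transcriptional feedback genes, 7 of 24 immediate early genes rose and 2 fell, a share of calls near that of all genes (35.8%). Over all genes, 20.9% were higher and 14.9% lower, which is the background for each list here. Dusp6, a phosphatase of ERK, rose by 1.86, Fosl2 by 1.79 and Dusp1 by 1.06, and Jun fell by 1.04. Of 19 genes of NF-kB feedback, 9 rose and 2 fell, led by Nfkbib (1.06), Cd40 (0.74) and Nfkbiz (0.64). Nfkbia rose by 0.26, a call lost without normal medium replicate 2 or 4 or CSH replicate 2. Of 16 genes of TGF-beta feedback, 7 rose and 2 fell, with Skil up by 1.16 and Tgif1 by 1.06, both repressors of SMAD signalling. Of 24 interferon-stimulated genes, 4 rose and 6 fell, with Oas3 down by 1.72 and Ifitm3 up by 0.56. Among 13 genes of cAMP and CREB feedback, 5 rose and 4 fell, with Crem up by 0.77 and Rgs2 down by 1.76.

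Of 14 class I genes 1 rose and 4 fell, a share of calls near that of all genes (35.8%). Among the falls the calls of Psme1, a proteasome activator, and Erap1, which trims peptides, were lost in 4 and 2 of the alternatives. Of the others, H2-K1 and B2m did not pass (-0.12 and 0.01). Of 9 class II genes and co-stimulators, 3 rose and 4 fell. Cd86 measured 9.37, 8.87 and 9.35 in SCR medium with CSH, against 7.63, 8.03 and 7.58 in normal medium (rise 1.45), and Cd80 rose by 0.91. Both are ligands of CD28. H2-DMa, which loads peptides, fell by 0.35.

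Of 18 genes of glycolysis, 0 rose and 6 fell, with Pfkp down by 0.70, Pfkm by 0.62 and Pgk1 by 0.17, the last of which was lost without normal medium replicate 2. Of 43 genes of oxidative phosphorylation, 6 rose and 9 fell (median 0.01). Over all genes tested, 35.8% were called in either direction. Of 24 genes of fatty acid handling, 5 rose and 10 fell. Fabp4, a fatty acid binding protein, measured 6.94, 7.37 and 6.65 in SCR medium with CSH, against 9.13, 8.64 and 9.36 in normal medium (difference -2.06, SE 0.19). Lpl, lipoprotein lipase, fell by 1.89 and Cpt1a, which admits fatty acids to mitochondria, by 1.42, and Acsl4 rose by 1.09. Of 9 LXR targets, 5 fell and 1 rose, with Pltp down by 0.87. Of 17 genes of cholesterol synthesis and uptake, 2 rose and 6 fell.

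Of 32 lysosomal genes, 15 rose and 8 fell, with Atp6v0d2, a subunit of the vacuolar proton pump, up by 0.96 and Npc1, a cholesterol exporter of the lysosome, by 0.88. Of 34 genes of ribosome biogenesis and MYC targets, 15 rose and 2 fell (median 0.21). Wdr74 rose by 1.12, Nop2 by 0.59 and Heatr1 by 0.56, and Ddx21 fell by 0.34. Of 15 genes of iron handling, 5 rose and 4 fell. Cp, the ferroxidase ceruloplasmin, measured 9.93, 9.80 and 9.93 in SCR medium with CSH, against 7.40, 7.97 and 7.33 in normal medium (rise 2.32, SE 0.14), and Ncoa4, the receptor that carries ferritin to lysosomes, fell by 1.10. Of 19 genes of the hypoxia response, 4 rose and 5 fell, against 20.9% and 14.9% of all genes. Vegfa, the vascular growth factor, measured 13.95, 13.92 and 13.86 in SCR medium with CSH, against 12.88, 12.71 and 12.74 in normal medium (rise 1.13), and Adm, adrenomedullin, fell by 1.39. Against SCR medium the interval of Vegfa was -0.33 to -0.04.

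Of 14 genes of osteoclast differentiation, 6 rose and 4 fell, with Dcstamp, a fusion protein, down by 2.08. Bglap2, an osteocalcin gene, was among the 15 largest rises (2.72), at 9.54, 8.36 and 9.13 in SCR medium with CSH against 6.26, 6.11 and 6.50 in normal medium. Of 15 BCL2 family genes, 5 rose and 2 fell, against 20.9% and 14.9% of all genes. Bcl2a1d and Bcl2a1a, survival genes that are near-identical copies and whose signals may be shared, rose by 1.43 and 1.33. Of 7 heat shock genes, 4 rose and 1 fell, and 3 of these calls (Hspa8, Hsp90aa1 and Dnajb1) were lost on leaving out some array. Olfr110 and Olfr111, olfactory receptor genes next to each other on chromosome 17 and also close in sequence, fell by 2.94 and 2.71, with CSH replicate 2 the highest of its group in both.

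**Figure D3:**
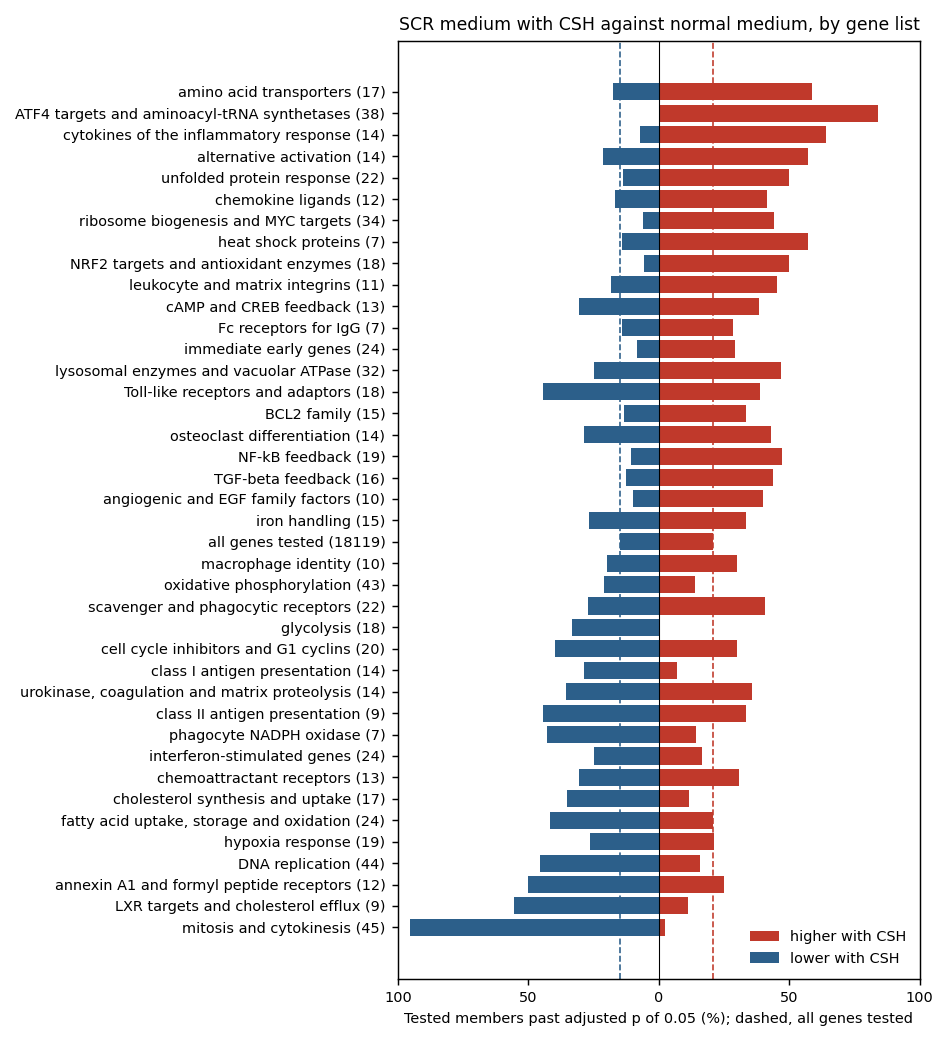
Share of the tested members of each gene list (number in brackets) that were higher (red, right) or lower (blue, left) in SCR medium with CSH than in normal medium, in percent, with dashed lines at the shares over all genes (20.9% and 14.9%). The bars of the ATF4 targets (32 of 38 higher) and of mitosis (43 of 45 lower) reach furthest.

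The remaining large changes belonged to no list. Avil, an actin-binding protein of the gelsolin family, measured 12.22, 11.24 and 12.23 in SCR medium with CSH, against 8.32, 9.13 and 8.38 in normal medium (rise 3.29, SE 0.29). Sh2d6, an SH2 domain protein, rose by 3.02 and Qpct, which forms pyroglutamate at protein ends, by 2.56. Ankdd1a, with ankyrin repeats and a death domain, measured 6.99, 7.24 and 7.09 in SCR medium with CSH, against 10.20, 10.03 and 10.02 in normal medium (difference -2.98, SE 0.07). Yipf7 fell by 3.07, Rasgrp3, an activator of Ras proteins, by 2.32. Rab7b, a GTPase of late endosomes, fell by 2.19. A further 33 rises and 28 falls of at least 2-fold were predicted genes, Riken clones, pseudogenes or small RNAs and are only counted.

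The 30 genes with the largest changes were then set against SCR medium. All 15 rises and all 15 falls were also called in SCR medium against normal medium. The interval of CSH against SCR medium held 0 in 28 of the 30, F5 and Ephx1 being the others. Among the rises that difference ran from -0.43 (F5 and Avil) to 0.34 (Hal), and among the falls from -0.35 (Prr11) to 0.26. The intervals lay within 0.5 of 0 for 5 of the rises and 8 of the falls. For the rest, such as Car6 (-0.90 to 0.51) and Avil (-1.05 to 0.20), the interval reached beyond 0.5, so a difference of that size is not excluded by it. These genes were picked on the arrays with CSH, so their differences from SCR medium are not independent of that choice.

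**Figure D4:**
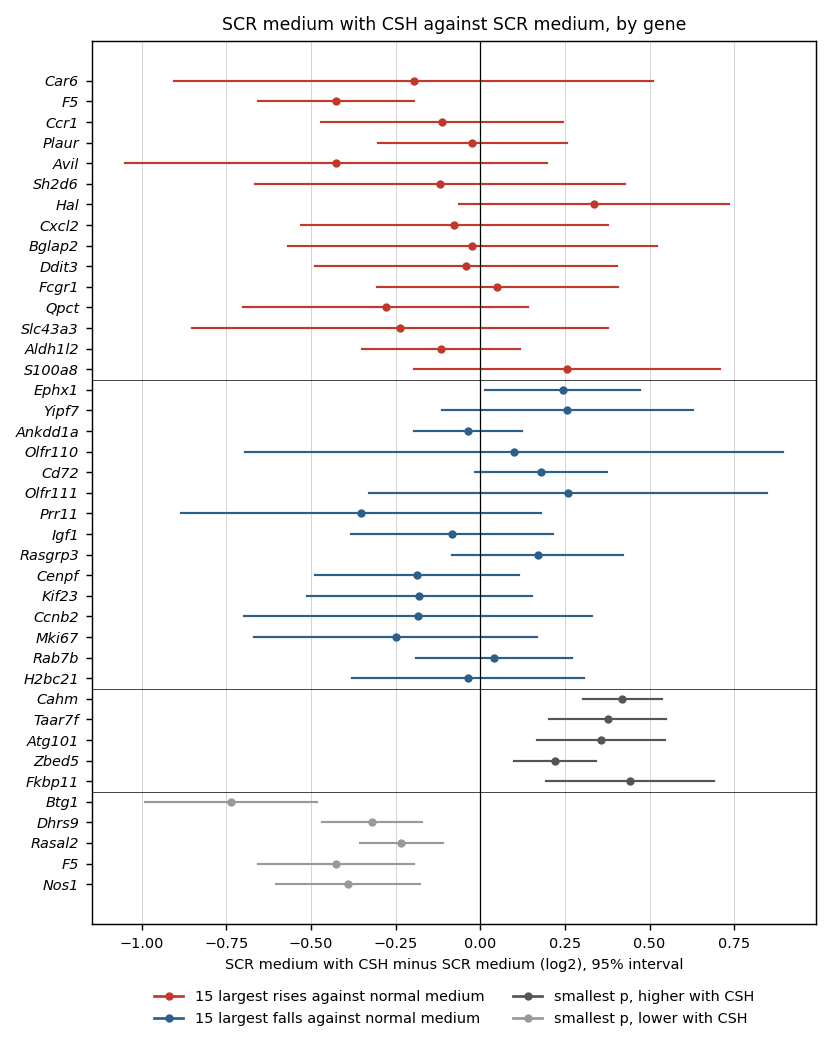
Difference of SCR medium with CSH from SCR medium (log2, horizontal axis) with its 95% interval for the 15 largest rises (red), the 15 largest falls (blue) and the 5 genes each with the smallest p above (dark grey) and below (light grey) SCR medium. Only F5 and Ephx1 among the first 30 have an interval that leaves out 0.

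The 10 genes with the smallest p between SCR medium with CSH and SCR medium, among those called against normal medium, were chosen by that p, and their values are a description. Cahm, a long non-coding RNA, measured 8.14, 8.11 and 8.15 in SCR medium with CSH, against 7.79, 7.65 and 7.70 in SCR medium and 8.83, 8.80 and 8.84 in normal medium. Its difference from SCR medium was 0.42 (95% interval 0.30 to 0.54, adjusted p = 0.0607). The arrays with CSH thus lay between the other groups without overlap. Btg1, an inhibitor of proliferation, measured 9.26, 9.33 and 9.0 in SCR medium with CSH, against 9.94, 9.71 and 10.15 in SCR medium and 8.76, 8.73 and 8.48 in normal medium. Its difference from SCR medium was -0.74 (-0.99 to -0.48, adjusted p = 0.206), again between the other groups. With array weights both were called, at adjusted p = 0.0035 for Cahm and 0.00565 for Btg1. That fit gave SCR replicate 4 a weight of 6.135, against 0.53 and 0.39 for SCR replicates 1 and 3. Dhrs9, a retinol dehydrogenase, differed from SCR medium by -0.32 and from normal medium by 0.42. Rasal2, which inactivates Ras, differed by -0.23 and 0.76.

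In Fkbp11, Atg101, Nos1 and Taar7f the mean with CSH lay beyond that of SCR medium on the side away from normal medium. Fkbp11, a peptidyl-prolyl isomerase of the secretory pathway, measured 9.25, 9.30 and 8.84 in SCR medium with CSH, against 8.76, 8.60 and 8.70 in SCR medium and 7.36, 7.51 and 7.22 in normal medium. Atg101, of the complex that starts autophagy, differed from SCR medium by 0.36 and from normal medium by 0.64. Nos1, the neuronal nitric oxide synthase, differed by -0.39 and -0.91. Taar7f, a trace amine-associated receptor with close copies, differed by 0.38 and 0.69 on signals of 6.02 to 6.21 in SCR medium with CSH. Zbed5 differed by 0.22 and 0.18, with the mean of SCR medium below that of normal medium (-0.04), and its call against normal medium was lost without any of 4 arrays.

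To choose genes without the arrays compared, rises and falls of at least 2-fold were taken from KO medium against normal medium, and their difference between CSH and SCR medium was read. The 388 rises had a median difference of 1.06 from normal medium in SCR medium with CSH and of 1.09 in SCR medium. Their median of CSH against SCR medium was -0.06, against 0.01 over all genes, and 321 of them (82.7%) had an interval within 0.5 of 0. The interval lay below 0 in 42 (10.8%) and above 0 in 7 (1.80%), against 2.14% below and 4.10% above over all genes. The 352 falls had medians of -1.20 and -1.23 from normal medium in SCR medium with CSH and in SCR medium. Their median of CSH against SCR medium was 0.04, with 281 (79.8%) within 0.5 of 0, 25 intervals above 0 (7.10%) and 2 below (0.568%). These numbers moved with single arrays. Over leaving out each array in turn, intervals below 0 among the rises numbered 23 to 73, the fewest without CSH replicate 2 and the most without SCR replicate 3. Intervals above 0 among the falls numbered 12 without CSH replicate 2 and 73 without CSH replicate 4, and the median of the falls turned to -0.01 without CSH replicate 2. With the replicate number as a block the median of the falls was -0.0063, also on the other side of 0, and that of the rises was -0.0288.

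**Figure D5:**
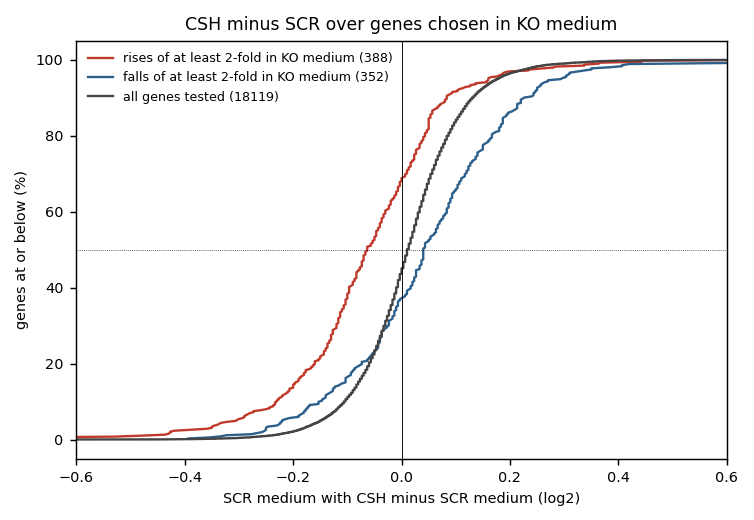
Cumulative share of genes (percent, vertical axis) by the difference of SCR medium with CSH from SCR medium (log2, horizontal axis) for the 388 rises (red) and 352 falls (blue) of at least 2-fold in KO medium and for all 18119 genes tested (grey). The medians lie at -0.06, 0.04 and 0.01, and that of the falls turns to -0.0063 with the replicate number as a block.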

How the data were processed

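Total RNA of RAW264.7 cultures was hybridised to Affymetrix arrays. The authors deposited RMA values on the log2 scale, made with Affymetrix Expression Console and with mm10 as the genome build, per the submitters' processing notes. No version is named there. RMA corrects background and quantile-normalizes, so a global shift of RNA content is not seen, and low signals are compressed. Arrays hold no counts, so their number limits the precision. Of 65528 probe sets, 31018 had 1 gene symbol in the platform table, 1478 had several and 33032 had none listed; the last 2 kinds are not named. Fpr1, Fpr2 and Fpr3 were not among the named genes. Where a gene had several probe sets (439 genes), that with the highest mean was used.

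Groups came from the sample titles. A limma 3.58.1 fit (R 4.3.3) with group as the only term and an intensity trend covered all 12 arrays. The median residual SD was 0.0964 on 8 degrees of freedom. Genes above the array median in at least 3 arrays were tested (18119), with Benjamini-Hochberg adjustment over all of them. The procedure was run on simulated data with noise drawn independently for each gene and array, so shifts shared by many genes of an array were not simulated. Members and gene lists were chosen with earlier results of these data known, so lists are described by counts and medians without a test. Genes were picked for naming by rule. The rule took the 15 largest rises and falls without overlap of arrays. From genes called against normal medium it took the 5 each with the smallest p above and below SCR medium. It also took the first 4 tested genes of each list, up to 6 members with the smallest p, and Anxa1 with the named formyl peptide receptors. Of the tested genes so picked, 273 were called against normal medium and 72 were not. Not all of them are described, and genes of both kinds were left out. Predicted genes, clones, pseudogenes, small RNAs and other olfactory or vomeronasal receptors were counted only. Promoters came from RefSeq for GRCm38.p6, and figures from matplotlib 3.10.9. Alternatives changed the filter, normalization, variance prior, array weights, probe set rule, replicate block, arrays fitted, threshold and each array left out.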

Additional observations from a re-analysis of the deposited data

How the results depend on the processing

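Against normal medium, SCR medium with CSH had 5411 to 6858 called genes over the alternatives at the same threshold, of which 6261 (quantile normalization, 6858 genes) and 5288 (without normal medium replicate 2, 5411 genes) were among the 6493. The count was 4542 at an adjusted p below 0.01 and 566 (257 higher, 309 lower) when a change of more than 1.5-fold was tested, and SCR medium then gave 634. Leaving out each array in turn gave 5411 to 5990 genes, and 468 to 566 of at least 2-fold. Median centring called 2991 higher and 2558 lower genes. For CSH against SCR medium, the stricter filter and the random replicate block called 1 gene (Cahm) and array weights called 79; the other alternatives, each array left out included, called 0. Of the genes chosen in KO medium, intervals below 0 among the rises numbered 67 with quantile normalization and 93 with array weights, and 23 to 73 on leaving out an array (27 without SCR replicate 4). Intervals above 0 among the falls numbered 64 with array weights and 12 to 73 on leaving out an array (15 without SCR replicate 3). The median of the rises ran from -0.1192 to -0.0100 and that of the falls from -0.0133 to 0.1142 over arrays left out. The causes were not tested. Of the 273 called genes picked for naming, 20 lost the call in at least 1 alternative and 0 reversed.

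Replicate numbers 2 and 4 are shared by the groups with CSH and in normal medium, but nothing in the labels says that they mark pairs. In their deviations from the group means, these arrays correlated at 0.118 and 0.063. CSH and SCR arrays correlated at 0.295 (number 1) and 0.006 (number 4), and CSH and KO arrays at 0.211 (number 1) and 0.250 (number 2). With the replicate block, 6243 genes were called against normal medium (502 at least 2-fold) and 0 against SCR medium, and the medians of the genes chosen in KO medium were -0.0288 for the rises and -0.0063 for the falls. The sign of the falls thus turned.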
